A study of Mus musculus with 72 samples.

Results

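The collagen genes of the mouse were followed across TNBS colitis and its treatment in colon tissue. They were taken as every gene whose symbol is Col, a number, the letter a and a number. Of 18194 genes measured by a probe set of their own, 42 met this rule, and where a gene had several probe sets the one brightest on average across the 72 arrays stood for it. Of these, 27 were bright enough to be tested (among 12535 genes in all), and 15 lay below the filter level of 2.42 on the log2 scale. The 27 tested genes comprise 9 chains of fibrillar collagens, 4 of basement membrane collagen IV, 4 of collagen VI, 3 of fibril-associated collagens, 3 of transmembrane collagens, 2 multiplexins and 2 chains of collagen VIII.

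Every mouse was a wild-type Balb/c animal and gave 1 array. Acute colitis was induced by rectal trinitrobenzene sulfonic acid (TNBS) in ethanol, a hapten that provokes an intense inflammation, dosed at 70 µg for each g of mouse. Colons were collected on day 4. Before TNBS, 15 mice received a combination of TNFR-Ig at 0.3 mg/kg and the antibody mP2D10 against TWEAK at 10 mg/kg, 12 received TNFR-Ig alone at 0.3 mg/kg, 14 received anti-TWEAK alone at 10 mg/kg, 15 received an antibody to human CD20 as control at 10 mg/kg, and 8 were left untreated; a further 8 mice were naive and had no TNBS. TNFR-Ig is a soluble TNF receptor fused to an antibody tail, which captures TNF. TWEAK belongs to the same cytokine family as TNF. The mice given TNFR-Ig alone received no antibody. The study was run as 2 experiments, labelled 7 (34 arrays) and 10 (38 arrays), with naive mice in experiment 10 alone. All arrays of experiment 10 and 2 of experiment 7 were in the later array run, and the other 32 of experiment 7 were in the earlier one. The specimens were cut from whole rolled colon, so fewer cells of a type and less RNA per cell cannot be told apart.

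Collagens are trimers of alpha chains that wind into a triple helix outside or at the surface of the cell. Fibrillar collagens form the load-bearing fibres of the gut wall and are made mostly by fibroblasts and smooth muscle. Collagen IV forms the sheet-like network of basement membranes under epithelium and around vessels, nerves and muscle fibres, and the multiplexins anchor that network to the tissue around it. Before a chain leaves the cell it is hydroxylated and folded by dedicated enzymes, and fibrils are later crosslinked by lysyl oxidases and cut by matrix metalloproteinases.

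Array medians ranged from 4.60 to 4.77 on the log2 scale and 36% to 37.84% of probe sets per array lay within 0.1 of the floor of the table, which is 2.077. All 10 colon epithelium markers were bright, with a mean of 14.27 to 14.50 in every array. The specimens differed in other tissue: the mean of 8 exocrine pancreas markers ran from 3.41 to 13.49, and that of 11 squamous epithelium markers from 3.29 to 10.00. The mean of 6 tested skeletal muscle and cartilage markers ran from 4.61 to 11.78. Of the cartilage markers on that list, Acan, Matn1 and Matn3 lay at the floor on all arrays. The untreated colitis arrays carried the inflammatory response. S100a8, a calprotectin subunit of neutrophils, had a median of 14.73 in untreated mice and 3.38 in naive mice. Timp1, an inhibitor of matrix proteases, had 12.48 in untreated mice and 3.49 in naive mice. The highest naive value of S100a8 was 9.07, and its lowest value was 13.74 in untreated and 7.64 in combination mice.

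The comparison of untreated with naive mice asked what acute colitis changed. Of the 27 collagen genes 15 were higher and 6 lower in untreated mice, at a Benjamini-Hochberg adjusted p under 0.05 over all tested genes in limma, in a model that also fitted the experiment. Of all genes, 22.2% were called higher and 25.6% lower. The median change of the 27 was 0.355 log2 units, against -0.009 for all genes, and 18 of the 27 lay above 0. By class, 7 of 9 fibrillar chains and both multiplexins were higher with none of either class lower, both collagen VIII chains were lower, and collagen IV split into 2 chains higher and 2 lower. In experiment 10 alone, where naive and untreated mice were run together, all 21 kept their sign. There 9 collagen genes were called higher and 8 lower, while 18.6% of all genes were called higher and 29.3% lower. The calls of Col5a3, Col6a1, Col6a2, Col6a3, Col12a1 and Col15a1 were lost there, and Col14a1 and Col27a1 were gained as lower. In 9 of the 27 genes the untreated and naive arrays did not overlap, as in 15.9% of all tested genes: Col1a1, Col3a1, Col5a2, Col4a1, Col4a2 and Col18a1, which were higher, and Col4a5, Col4a6 and Col25a1, which were lower in untreated mice.

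**Figure D1:**
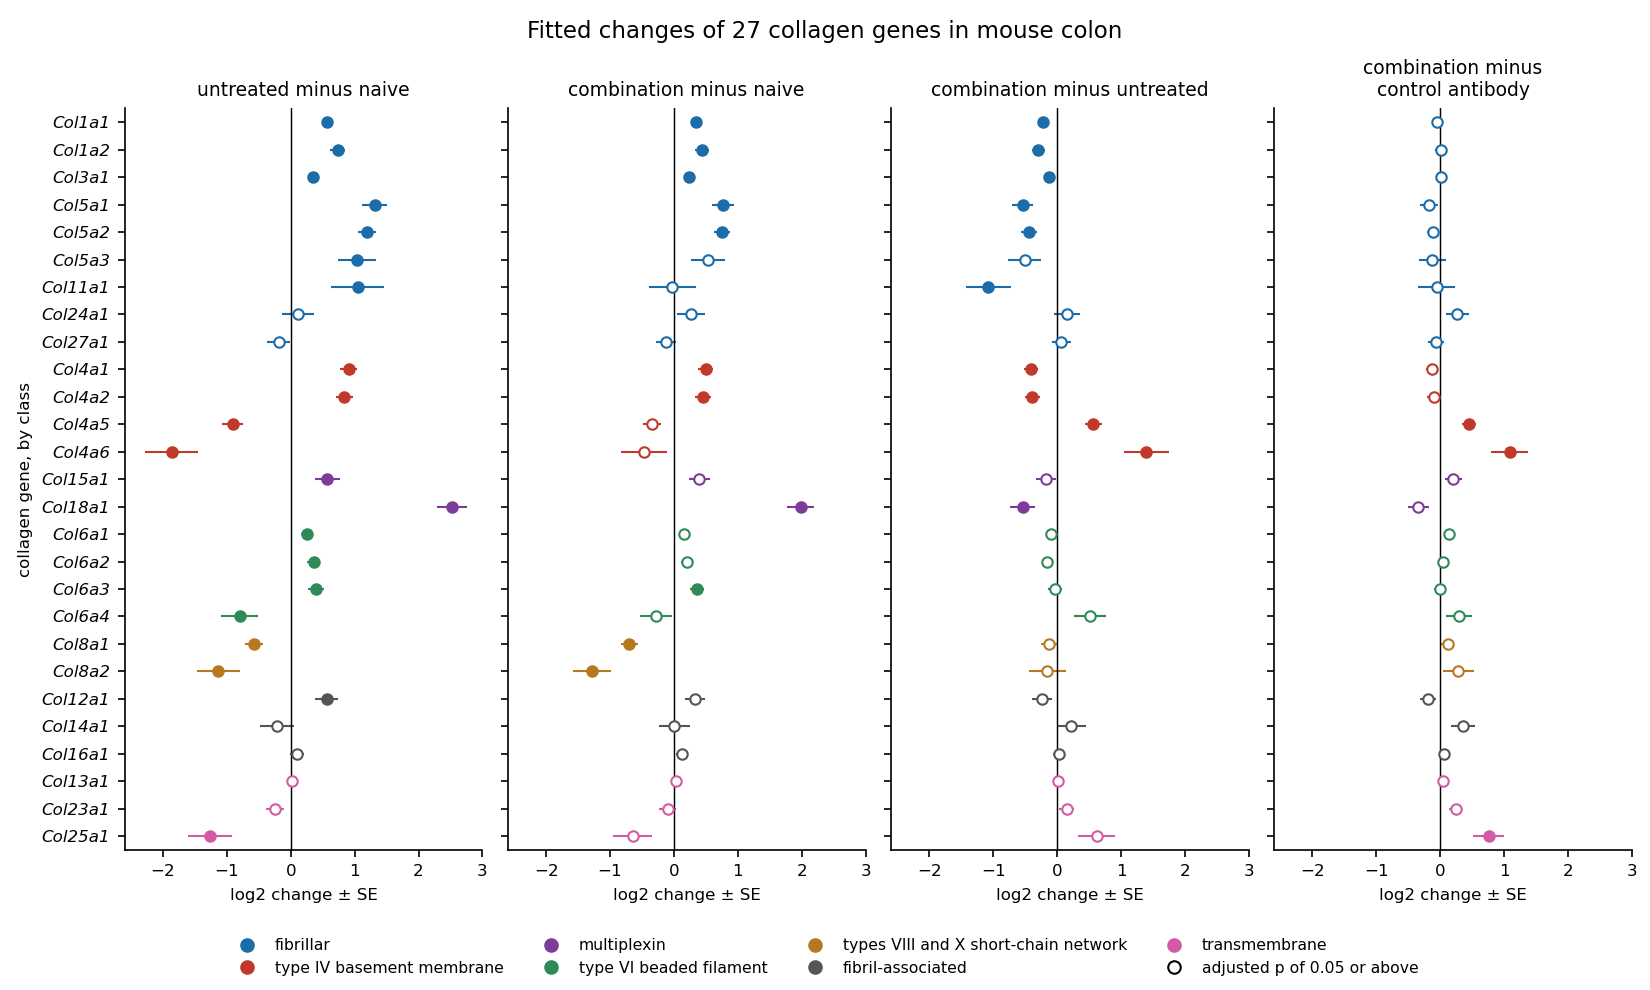
Fitted log2 change with its standard error of the 27 tested collagen genes, by class, for untreated minus naive, combination minus naive, combination minus untreated and combination minus control antibody mice; filled points have an adjusted p under 0.05. Col18a1 lies farthest to the right against naive mice (2.52 in untreated and 1.98 in combination mice), and Col4a5 and Col4a6 lie left of 0 in untreated against naive mice and right of 0 in combination against untreated mice.

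Col18a1 had the largest change of the 27. It encodes the core protein of a heparan sulphate proteoglycan of vessel and epithelial basement membranes, whose end fragment is endostatin. Its log2 values had a lowest, median and highest of 8.30, 9.20 and 9.71 in untreated mice and 5.82, 6.70 and 6.96 in naive mice. The fitted change was 2.52 ± 0.23 (SE, 5.73-fold, adjusted p = 8.08e-14 in limma), and every untreated array lay above every naive array. In experiment 10 alone it was 2.42 (adjusted p = 3.97e-09 in limma), and the gene's other probe set gave 2.07. The other multiplexin, Col15a1, of the outer zone of basement membranes, changed by 0.58 ± 0.19 (adjusted p = 0.00949 in limma), but by 0.17 in experiment 10 alone, where it did not pass (adjusted p = 0.407 in limma).

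By the brightest probe set of each gene, the 2 largest rises among fibrillar chains were those of Col5a1 and Col5a2 of collagen V, which starts the assembly of type I fibrils and sets their thickness. Col5a2 had a lowest, median and highest of 11.84, 12.63 and 13.09 in untreated mice and 11.26, 11.44 and 11.76 in naive mice, without overlap, and rose by 1.19 ± 0.14 (SE, 2.28-fold, adjusted p = 1.62e-10 in limma). Col5a1 had 10.28, 11.28 and 12.02 in untreated mice and 9.64, 10.04 and 10.40 in naive mice. It rose by 1.31 ± 0.19 (adjusted p = 9.86e-08 in limma), with 7 of 8 untreated arrays above all naive arrays. The third chain, Col5a3, rose by 1.03 ± 0.30 (adjusted p = 0.00346 in limma), with 5.05, 6.49 and 7.54 in untreated mice and 5.05, 5.64 and 6.03 in naive mice. Those groups overlap, and in experiment 10 alone its change was 0.39 with an adjusted p of 0.218 in limma.

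The major fibre-forming chains rose as well, by an amount that depended on the probe set. Col1a1, the main chain of collagen I, had a lowest, median and highest of 13.42, 13.81 and 14.03 in untreated mice and 12.95, 13.15 and 13.37 in naive mice, a rise of 0.57 ± 0.08 (1.48-fold, adjusted p = 5.41e-08 in limma). Col3a1, of the reticular fibres around vessels and in the gut wall, had 14.29, 14.50 and 14.65 in untreated mice and 14.04, 14.17 and 14.29 in naive mice and rose by 0.36 ± 0.05 (adjusted p = 9.79e-08 in limma). Neither gene overlapped between the groups, although the highest naive and the lowest untreated array of Col3a1 both round to 14.29. The dimmer probe set of each gave a larger rise, 1.24 ± 0.19 for Col1a1 and 0.68 ± 0.12 for Col3a1. Col1a2, the second chain of collagen I, rose by 0.73 ± 0.12 (adjusted p = 1.39e-06 in limma), and 7 of 8 untreated arrays lay above all naive arrays.

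Col11a1, a chain of collagen XI related to collagen V and best known from cartilage, lay close to the floor in most mice. Its values ran from 2.08 through a median of 2.83 to 5.50 in untreated mice and from 2.09 through 2.25 to 2.25 in naive mice. The rise of 1.05 ± 0.41 (adjusted p = 0.0307 in limma) thus rests on the 5 untreated arrays above all naive arrays. The minor fibrillar chains Col24a1 and Col27a1 had changes of 0.11 ± 0.24 and -0.19 ± 0.18 and did not pass.

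Collagen IV has 2 chain sets that lie in pairs on the genome, and these moved in opposite directions. Col4a1 and Col4a2 make up the network of nearly all basement membranes and are transcribed away from each other from starts that nearly coincide. Col4a5 and Col4a6 form a second network, found around smooth muscle and under some epithelia, and are likewise transcribed away from each other, from starts farther apart. The start regions are shown because the chains of each pair changed together; each runs from 250 bases before to 50 bases after the annotated start, 5′ to 3′ on the gene's own strand, from RefSeq on GRCm38.p6. Capitals mark CCAAT boxes (CCAAT, or ATTGG on the other strand) and GC boxes (GGGCGG, or CCGCCC on the other strand); these motifs do not overlap each other here.
Col4a1, chr8:11312777-11313076, minus strand: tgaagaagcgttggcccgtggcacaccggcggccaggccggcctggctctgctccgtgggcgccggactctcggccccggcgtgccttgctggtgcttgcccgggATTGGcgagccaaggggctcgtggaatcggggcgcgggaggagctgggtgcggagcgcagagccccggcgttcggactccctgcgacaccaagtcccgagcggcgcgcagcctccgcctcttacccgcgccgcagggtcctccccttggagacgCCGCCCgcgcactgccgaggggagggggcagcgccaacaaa
Col4a2, chr8:11312555-11312854, plus strand: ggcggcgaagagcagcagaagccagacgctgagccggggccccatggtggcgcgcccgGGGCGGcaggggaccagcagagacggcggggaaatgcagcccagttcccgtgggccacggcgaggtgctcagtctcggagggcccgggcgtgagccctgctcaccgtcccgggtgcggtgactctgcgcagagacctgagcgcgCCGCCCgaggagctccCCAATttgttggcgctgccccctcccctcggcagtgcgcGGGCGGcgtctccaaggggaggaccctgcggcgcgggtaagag
Col4a6, chrX:141474027-141474326, minus strand: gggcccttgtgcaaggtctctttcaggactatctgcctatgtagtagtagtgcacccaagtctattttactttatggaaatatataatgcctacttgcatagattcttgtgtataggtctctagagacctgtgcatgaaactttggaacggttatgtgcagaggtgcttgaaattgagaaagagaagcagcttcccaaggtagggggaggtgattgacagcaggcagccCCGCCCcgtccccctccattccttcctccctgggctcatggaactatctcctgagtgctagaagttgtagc
Col4a5, chrX:141475169-141475468, plus strand: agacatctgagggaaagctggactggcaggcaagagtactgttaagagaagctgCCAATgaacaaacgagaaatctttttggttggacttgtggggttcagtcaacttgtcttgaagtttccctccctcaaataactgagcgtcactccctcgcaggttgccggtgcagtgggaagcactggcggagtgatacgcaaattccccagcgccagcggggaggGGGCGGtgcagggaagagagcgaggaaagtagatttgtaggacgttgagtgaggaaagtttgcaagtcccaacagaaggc
The annotated starts of Col4a1 and Col4a2 lie 21 bases apart with the genes overlapping at their 5′ ends, and the windows share 78 bases, which hold 1 GC box read from both sides. The starts of Col4a6 and Col4a5 lie 1343 bases apart, and their windows share no base. GC content is 74% and 73.7% in the Col4a1 and Col4a2 windows, and 48.3% and 52.7% in those of Col4a6 and Col4a5. Of the tested collagen genes 23 matched a promoter entry, 25 windows in all. A GC box stands in 18 of the 25 windows (72%) and in 35.7% of 32851 mouse promoter windows of the same length. A CCAAT box stands in 10 (40%) and in 37.4% of all windows. A match is a description of these letters, and no binding was measured.

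Col4a1 had a lowest, median and highest of 12.72, 13.38 and 13.60 in untreated mice and 12.04, 12.37 and 12.61 in naive mice and rose by 0.91 ± 0.13 (1.88-fold, adjusted p = 5.41e-08 in limma). Its partner Col4a2 had 12.28, 13.01 and 13.31 in untreated mice and 11.81, 12.04 and 12.23 in naive mice and rose by 0.84 ± 0.14 (adjusted p = 9.26e-07 in limma). For both chains every untreated array lay above every naive array. Col4a5 had 9.58, 10.14 and 10.46 in untreated mice and 11.01, 11.08 and 11.21 in naive mice, and fell by 0.91 on the log2 scale (SE 0.16, adjusted p = 3.75e-06 in limma). Col4a6 had 3.14, 4.15 and 4.75 in untreated mice and 5.47, 6.18 and 6.79 in naive mice, and fell by 1.86 (SE 0.41, adjusted p = 0.000141 in limma). For both of these chains every untreated array lay below every naive array. In experiment 10 alone the 4 changes were 0.82, 0.77, -1.06 and -2.20, and all passed. The chains Col4a3 and Col4a4, which join Col4a5 in the kidney filter, were too dim to test.

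The chains of collagen VI, which forms beaded microfilaments between cells and fibres, were called for all 4 tested chains. Col6a1, Col6a2 and Col6a3 were higher in untreated mice by 0.25 ± 0.09, 0.36 ± 0.10 and 0.39 ± 0.12, and none of the 3 passed in experiment 10 alone, where their changes were 0.16, 0.21 and 0.17 (adjusted p = 0.184, 0.0809 and 0.288 in limma). Col6a4, a long chain that can stand in for Col6a3 in the mouse, fell by 0.80 (SE 0.29, adjusted p = 0.0192 in limma), with 5 of 8 untreated arrays below all naive arrays.

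Both chains of collagen VIII, a short-chain network collagen of vessel walls and of the membrane behind the cornea, were lower in colitis. Col8a2 ran from 4.29 through 5.75 to 8.19 in untreated mice and from 6.97 through 7.27 to 7.63 in naive mice, and fell by 1.13 (SE 0.34, adjusted p = 0.00425 in limma); 7 of 8 untreated arrays lay below all naive arrays and 1 above them. Col8a1 fell by 0.57 (SE 0.15, adjusted p = 0.00092 in limma). Its other probe sets gave -0.77, which passed, and -0.12, which did not (adjusted p = 0.581 in limma). In experiment 10 alone Col8a2 was at -1.74 and Col8a1 at -0.62, and both passed.

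Among the transmembrane collagens Col25a1, needed in the mouse for motor axons to enter muscle and found in amyloid plaques in humans, fell most. Its values ran from 4.95 through 6.15 to 7.46 in untreated mice and from 7.47 through 7.68 to 8.01 in naive mice, which just fail to overlap, and it fell by 1.26 (SE 0.34, adjusted p = 0.0019 in limma). Col13a1, a collagen of the nerve-muscle junction, sat at the same value of 2.637 on 60 of the 72 arrays, and Col23a1 at 5.661 on 19 arrays. Neither passed, with changes of 0.02 ± 0.06 and -0.25 ± 0.14. Of the fibril-associated chains, which coat the surface of fibrils, Col12a1 rose by 0.56 ± 0.18 (adjusted p = 0.00724 in limma). Col14a1 and Col16a1 had changes of -0.21 ± 0.27 and 0.10 ± 0.11 and did not pass. In experiment 10 alone Col12a1 did not pass (0.49, adjusted p = 0.072 in limma), while Col14a1 passed as lower (-0.59, adjusted p = 0.00253 in limma).

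**Figure D2:**
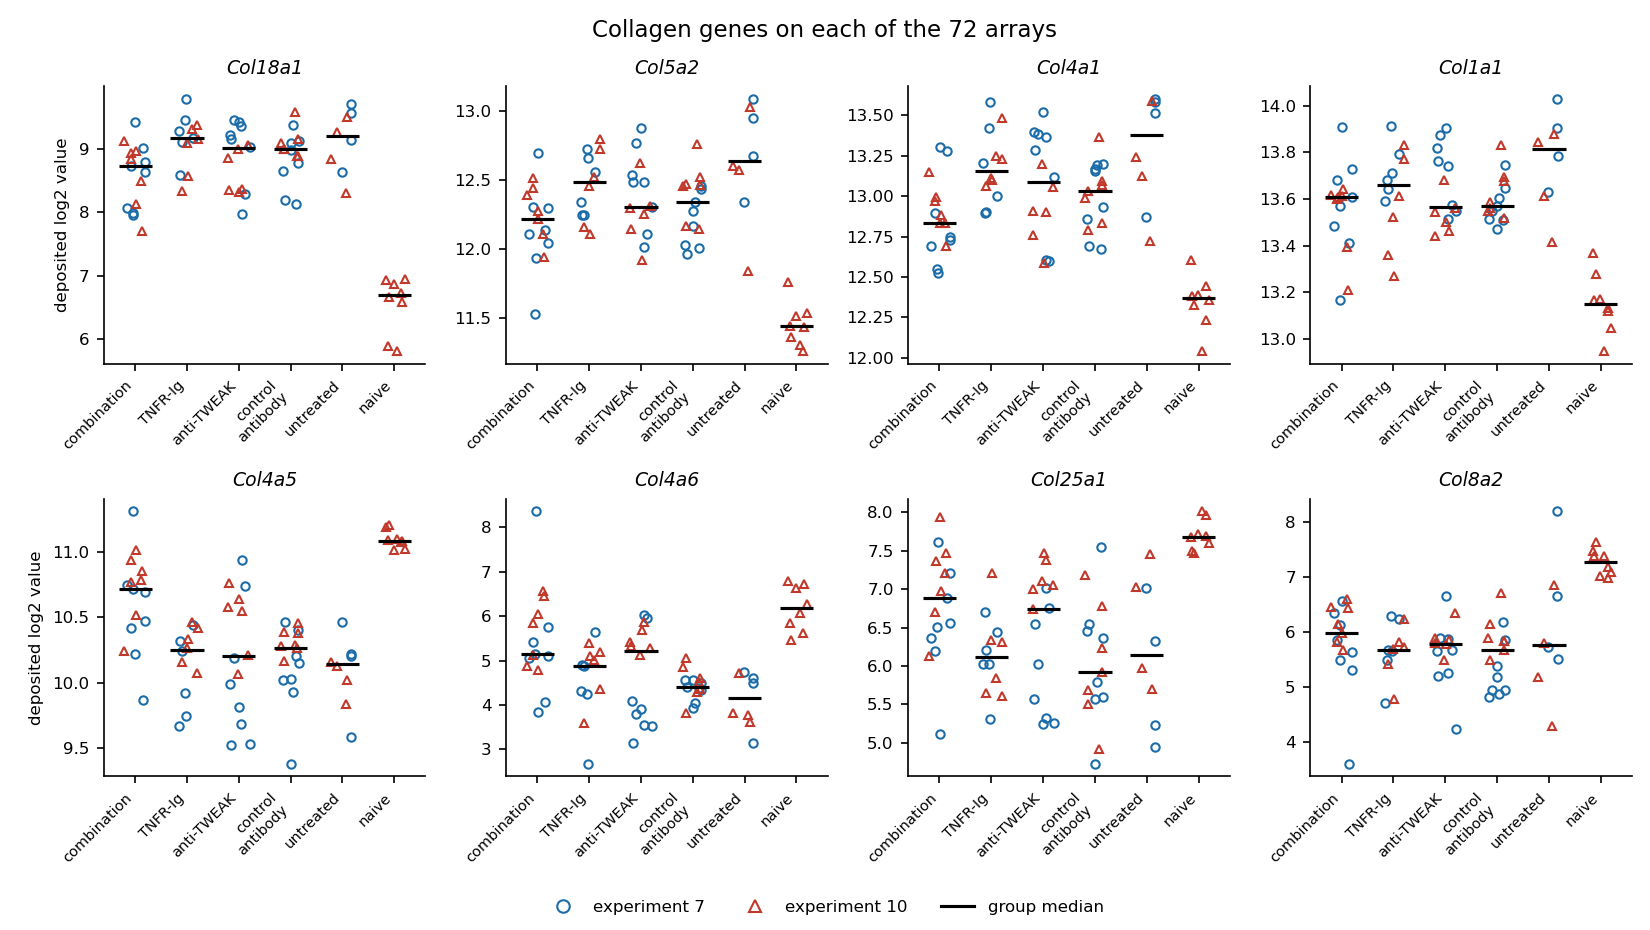
Deposited log2 values of 8 collagen genes on each of the 72 arrays, by group, with experiment 7 as circles, experiment 10 as triangles and the group median as a line; each panel has its own scale, which does not start at 0. The naive arrays lie below all untreated arrays for Col18a1, Col5a2, Col4a1 and Col1a1 and above them for Col4a5, Col4a6 and Col25a1; for Col4a6 the combination median of 5.14 lies between those of naive (6.18) and control antibody mice (4.40).

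Genes around the collagens were also called in this comparison, in which 22.2% of all genes were called higher and 25.6% lower. Of 24 tested enzymes of collagen synthesis and processing 19 were higher and 2 lower in untreated than in naive mice, among them the crosslinking oxidase Lox (3.23 ± 0.31), the lysyl hydroxylase Plod2 (1.93 ± 0.26) and the prolyl hydroxylase subunit P4ha2 (1.66 ± 0.22). All 9 collagen-degrading proteases tested were higher, led by Mmp9 (7.15 ± 0.51), a gelatinase of neutrophils, and the stromelysin Mmp3 (7.03 ± 0.59). Of 12 fibril-associated proteoglycans and glycoproteins 6 were higher and 2 lower, of 9 TGF-beta signalling genes 4 higher and 3 lower, and of 7 collagen receptors 3 higher and 2 lower. Mrc2, an endocytic receptor that takes up collagen, rose 2.82-fold (adjusted p = 2.35e-07 in limma).

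Markers of the cell types in the specimens changed in both directions, while 22.2% of all genes were called higher and 25.6% lower. Of 10 endothelial markers 9 were higher and 0 lower in untreated mice, with a mean level of 7.40 to 8.62 in untreated and 6.76 to 7.22 in naive arrays. Of 10 smooth muscle markers 9 were lower and 0 higher, at 11.69 to 12.34 in untreated and 12.39 to 12.56 in naive arrays. Among 6 pericyte markers 4 were higher and 1 lower, with means of 9.12 to 9.92 in untreated and 9.12 to 9.41 in naive arrays, and of 11 fibroblast markers 3 were higher and 3 lower, with overlapping means of 9.92 to 10.79 and 9.94 to 10.41. Of 4 enteric glia markers 3 were lower, with means of 6.11 to 6.59 in untreated and 6.64 to 7.14 in naive arrays and Foxd3 at the floor on all arrays. All 9 neutrophil and monocyte markers were higher. Of the remaining lists, 7 of 10 colon epithelium, 1 of 4 adipocyte, 1 of 8 exocrine pancreas and 1 of 6 skeletal muscle and cartilage markers were lower with none higher, 2 of 3 mesothelium markers were higher and 1 lower, and 0 of 11 squamous epithelium markers passed in limma. The part of these cell types in the collagen changes was not tested.

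The comparison of control antibody with untreated mice shows what the antibody injection itself went with. Collagen calls were 4, all lower (Col1a2, Col3a1, Col6a1 and Col11a1), against 10.3% of all genes called in either direction. The median change over the 27 was -0.163, against 0.03 for all genes. Col3a1 had a lowest, median and highest of 14.17, 14.32 and 14.49 in control antibody mice and 14.29, 14.50 and 14.65 in untreated mice, a change of -0.14 ± 0.04 (adjusted p = 0.0301 in limma). Col6a1 had 11.73, 11.94 and 12.23 in control antibody mice and 11.93, 12.16 and 12.40 in untreated mice, a change of -0.23 ± 0.07 (adjusted p = 0.0359 in limma), and Col1a2 changed by -0.30 ± 0.10 (adjusted p = 0.0484 in limma). For each of these 3 genes the groups overlap. None of the 4 passed in either experiment alone, and without 1 untreated array (experiment 10, replicate 3) the count became 10; it was 2 without 1 combination array (experiment 7, replicate 6) and 2 without 1 naive array (replicate 1).

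Neither agent alone was followed by broad collagen calls. In TNFR-Ig against control antibody mice 1 collagen gene was called, as 4.08% of all genes were. It was Col6a1, which had 11.89, 12.24 and 12.60 in TNFR-Ig mice and 11.73, 11.94 and 12.23 in control antibody mice, with overlap, a change of 0.24 ± 0.07 (1.18-fold, adjusted p = 0.0236 in limma). Its partner Col6a2 changed by 0.21 ± 0.07 without passing (adjusted p = 0.0892 in limma). TNFR-Ig mice received no antibody, so TNFR-Ig and the lack of the control antibody cannot be told apart in this comparison. In untreated mice, which had no antibody either, Col6a1 had 11.93, 12.16 and 12.40. Against untreated mice, TNFR-Ig mice had 0 collagen genes called in limma, with 1 at an unadjusted p under 0.05 and 3.01% of all genes called. In anti-TWEAK against control antibody mice limma called 0 of 27, with 2 at an unadjusted p under 0.05 (Col6a1 at 0.19 ± 0.06 and Col6a2 at 0.15 ± 0.07) and 2.80% of all genes called. In experiment 10 alone 3 were called higher in anti-TWEAK mice, Col4a6, Col23a1 and Col25a1, while 9.25% of all genes were called higher there.

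The combination against its control antibody gave 3 collagen calls of 27, all higher, while 31.2% of all genes were called. They were the paired chains Col4a5 and Col4a6 and the transmembrane Col25a1, which were also lower in untreated than in naive mice. The 2 comparisons have no group in common, but both come from 1 fit to all 72 arrays and share its experiment term. With only the compared groups fitted, these 3 genes were called in both comparisons as well. Col4a5 had a lowest, median and highest of 9.87, 10.71 and 11.31 in combination mice and 9.38, 10.26 and 10.46 in control antibody mice, and rose by 0.45 ± 0.11 (1.37-fold, adjusted p = 0.00213 in limma). Col4a6 had 3.83, 5.14 and 8.37 in combination mice and 3.81, 4.40 and 5.06 in control antibody mice, and rose by 1.09 ± 0.29 (2.12-fold, adjusted p = 0.00365 in limma). For each of these chains 11 of the 15 combination arrays lay above all control antibody arrays. Col25a1 had 5.12, 6.88 and 7.93 in combination mice and 4.73, 5.93 and 7.55 in control antibody mice, with only 2 combination arrays above all of the control antibody arrays, and rose by 0.76 ± 0.24 (adjusted p = 0.0146 in limma).

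Within experiments the same 3 genes were higher in combination mice in both, and passed in experiment 10 (0.41, 1.17 and 1.08 for Col4a5, Col4a6 and Col25a1) but not in experiment 7 (0.48, 1.01 and 0.48, adjusted p = 0.116, 0.173 and 0.41 in limma). Of all genes, 9.98% were called higher in experiment 10 alone and 2.98% in experiment 7 alone. The difference between experiments was not called for any of the 27. Without the combination array with the highest Col4a6, at 8.37, the 3 changes were 0.39, 0.86 and 0.69 and still passed. The specimens varied widely in pancreas within both groups. The 8 exocrine pancreas markers, 0 of which passed in limma, had a median mean level of 9.21 (3.59 to 13.49) in combination mice. In control antibody mice it was 3.71 (3.44 to 13.01). In the fit to both experiments 31.2% of all genes were called. Of the muscle and glia lists, Myh11 (0.17 ± 0.05) was the 1 called of 10 smooth muscle markers, with means of 11.75 to 12.39 in combination and 11.84 to 12.26 in control antibody mice. Cdh19 (0.75 ± 0.16) and Erbb3 (0.17 ± 0.05) were the 2 called of 4 glia markers, with means of 6.23 to 6.92 in combination and 6.08 to 6.61 in control antibody mice. The part of these tissues in the 3 changes was not tested.

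By the brightest probe set of each gene, the collagens that rose in colitis gave no call here. Col18a1 had 7.71, 8.72 and 9.41 in combination mice and 8.13, 8.99 and 9.58 in control antibody mice, a change of -0.34 ± 0.17 (adjusted p = 0.106 in limma). The other probe set of Col18a1 did pass as lower in combination mice, at -0.40 ± 0.15 (adjusted p = 0.034 in limma). Col4a1 changed by -0.13 ± 0.09, Col1a1 by -0.05 ± 0.06 and Col5a2 by -0.11 ± 0.10. Among 24 processing enzymes 4 were called, all lower in combination mice, a smaller share than the 31.2% of all genes, with Plod2 at -0.77 ± 0.18 and P4ha1 at -0.55 ± 0.11, and 4 of 9 degrading proteases were lower, with Mmp8 at -2.52 ± 0.90, Mmp3 at -1.67 ± 0.42, Mmp13 at -1.36 ± 0.34 and Mmp9 at -1.29 ± 0.36.

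Against untreated mice the combination gave 11 collagen calls, 2 higher and 9 lower, while 13.9% of all genes were called higher and 10.6% lower. The 2 that rose were Col4a5 (0.57 ± 0.14) and Col4a6 (1.40 ± 0.35, adjusted p = 0.00226 in limma). The 9 that fell were 6 fibrillar chains, Col4a1, Col4a2 and Col18a1. Col5a2 had 11.53, 12.22 and 12.69 in combination mice and 11.84, 12.63 and 13.09 in untreated mice, and fell by 0.44 (SE 0.12, adjusted p = 0.00438 in limma). Col4a1 had 12.53, 12.84 and 13.30 in combination mice and 12.72, 13.38 and 13.60 in untreated mice, and fell by 0.41 (SE 0.11, adjusted p = 0.00476 in limma). The changes of Col5a1, Col18a1, Col1a1, Col1a2 and Col3a1 were -0.54, -0.54, -0.22, -0.29 and -0.13. The groups overlap for each of these genes.

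The difference between experiments was not tested for this comparison. In experiment 7 alone Col5a1 and Col5a2 passed, at -0.86 and -0.63, and in experiment 10 alone they were at -0.21 and -0.24 without passing (adjusted p = 0.49 and 0.262 in limma). Of the 9 falls, Col11a1 passed in experiment 10 alone (-1.11), and the 2 rises passed there too, at 0.70 for Col4a5 and 1.70 for Col4a6. In experiment 7 alone these 2 changes were 0.44 and 1.09 and did not pass (adjusted p = 0.25 and 0.233 in limma). Over all genes, 17.4% were called higher and 6.91% lower in experiment 10 alone, and 2.82% and 4.16% in experiment 7 alone. The 11 calls became 5 when only the compared groups were fitted and 7 without the 2 combination arrays of experiment 7 in a later array run. In the fit to both experiments 13.9% of all genes were called higher and 10.6% lower. Of the processing enzymes 13 of 24 were lower in combination than in untreated mice, led by Plod2 (-1.26 ± 0.22) and Lox (-1.16 ± 0.26). Endothelial markers included 6 of 10 lower and 0 higher, with a mean of 6.64 to 8.12 in combination and 7.40 to 8.62 in untreated mice. Of 9 neutrophil and monocyte markers 8 were lower, with a mean of 6.54 to 9.55 in combination and 8.43 to 10.48 in untreated mice. Smooth muscle markers included 3 of 10 higher, at 11.75 to 12.39 in combination and 11.69 to 12.34 in untreated mice, and colon epithelium markers 3 of 10 higher, at 14.31 to 14.49 in combination and 14.27 to 14.43 in untreated mice. The part of these cell types in the collagen changes was not tested. Untreated mice received no injection, so the injection and the agents cannot be told apart here.

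Directly against TNFR-Ig alone, the combination gave 3 collagen calls, 1 higher and 2 lower, with 6.71% of all genes called. TNFR-Ig mice received no antibody, so blocking TWEAK and receiving an antibody cannot be told apart here. Col4a5 had 9.87, 10.71 and 11.31 in combination mice and 9.67, 10.25 and 10.47 in TNFR-Ig mice, and rose by 0.47 ± 0.12 (adjusted p = 0.0113 in limma), with 11 of 15 combination arrays above all TNFR-Ig arrays. Col4a1 had 12.53, 12.84 and 13.30 in combination mice and 12.89, 13.16 and 13.58 in TNFR-Ig mice, and fell by 0.32 (SE 0.10, adjusted p = 0.0387 in limma), with 9 of 15 combination arrays below all TNFR-Ig arrays. Col4a2 fell by 0.33 (SE 0.10, adjusted p = 0.0414 in limma). Without the combination array with the highest Col4a6, Col4a5 remained called and Col4a1 and Col4a2 did not. Endothelial markers included 4 of 10 lower in combination mice, at 6.64 to 8.12 against 7.65 to 8.47 in TNFR-Ig mice, and their part was not tested. Against anti-TWEAK alone limma called 0 of the 27, with 2 at an unadjusted p under 0.05, Col4a5 at 0.40 ± 0.11 and Col4a6 at 0.72 ± 0.30, and called 0% of all genes, of which 2259 had an unadjusted p under 0.05.

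What remained altered under the combination was seen against naive mice. Of the 27 genes 9 were higher and 2 lower in combination mice, while 13.3% of all genes were called higher and 12.0% lower. Col18a1 had 7.71, 8.72 and 9.41 in combination mice and 5.82, 6.70 and 6.96 in naive mice, without overlap, a rise of 1.98 ± 0.21 (3.95-fold, adjusted p = 1.61e-11 in limma). The other 8 that rose were Col5a1 (0.77), Col5a2 (0.75), Col4a1 (0.50), Col4a2 (0.45), Col1a2 (0.44), Col6a3 (0.36), Col1a1 (0.35) and Col3a1 (0.23). Of Col5a1 and Col5a2, 14 of 15 combination arrays each lay above all naive arrays. Experiment 10 alone gave 14 calls higher and 3 lower, while 20.7% of all genes were called higher and 16.0% lower. The changes there were 2.04 for Col18a1, 0.87 for Col5a1, 0.82 for Col5a2 and 0.56 for Col4a1, and all 11 calls were kept. The 6 gained were Col5a3, Col6a1, Col6a2, Col12a1 and Col15a1, which were higher, and Col4a5, which was lower in combination mice.

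Both chains of collagen VIII were lower in combination than in naive mice. Col8a2 had 3.60, 5.98 and 6.59 in combination mice and 6.97, 7.27 and 7.63 in naive mice, without overlap, and fell by 1.28 (SE 0.30, adjusted p = 0.000884 in limma). Its medians in TNFR-Ig, anti-TWEAK and control antibody mice were 5.67, 5.78 and 5.66. Col8a1 had 9.93, 10.29 and 10.65 in combination mice and 10.61, 10.84 and 11.19 in naive mice, and fell by 0.70 (SE 0.13, adjusted p = 3.83e-05 in limma). Within experiment 10 the changes were -1.11 for Col8a2 and -0.57 for Col8a1, and both passed. By the brightest probe set neither chain was called in any comparison among colitic mice. The other 2 probe sets of Col8a1 were lower in combination than in untreated mice, at -0.57 and -0.38 (adjusted p = 0.0452 and 0.0498 in limma). Col4a5, Col4a6 and Col25a1, which were lower in untreated mice, did not pass against naive mice (-0.34 ± 0.14, -0.47 ± 0.36 and -0.64 ± 0.31), although 13, 9 and 12 of the 15 combination arrays lay below all naive arrays. Within experiment 10, Col4a5 did pass as lower (-0.37, adjusted p = 0.0025 in limma), while Col4a6 (-0.50) and Col25a1 (-0.59) did not (adjusted p = 0.152 and 0.102 in limma). In the fit to both experiments 13.3% of all genes were called higher and 12.0% lower. Smooth muscle markers were lower for 7 of 10, with a mean of 11.75 to 12.39 in combination and 12.39 to 12.56 in naive mice. Endothelial markers were higher for 8 of 10, with a mean of 6.64 to 8.12 in combination and 6.76 to 7.22 in naive mice. Neutrophil and monocyte markers were higher for 7 of 9, at 6.54 to 9.55 in combination and 5.09 to 6.35 in naive mice. The part of these cell types was not tested.

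Collagen chains of the same molecule or fibre were compared from mouse to mouse. To leave out the treatments, each array was taken as its deviation from the mean of its group and experiment, and Pearson's r was computed over the 72 arrays for 8 pairs, 7 of them chains of 1 collagen type and 1 (Col1a1 and Col3a1) of different collagens that share fibres. It was 0.973 for Col4a1 and Col4a2, 0.937 for Col5a1 and Col5a2, 0.92 for Col6a1 and Col6a2, 0.88 for Col1a1 and Col3a1 and 0.858 for Col1a1 and Col1a2. It was lower for Col4a5 and Col4a6 (0.744), Col6a1 and Col6a3 (0.595) and Col8a1 and Col8a2 (0.509). Spearman's rho of the 8 pairs, in the same order, was 0.973, 0.908, 0.897, 0.854, 0.822, 0.616, 0.602 and 0.449. The permutation p of r was 1e-05, the smallest that 100000 permutations can give, for every pair but Col8a1 and Col8a2 (3e-05); adjusted over the 8 pairs the values are 1.1e-05 and 3e-05. The p of rho was 1e-05 likewise, with 0.00037 for Col8a1 and Col8a2.

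Without the 2 arrays farthest from the median of the first gene, r lay between 0.47 and 0.97 for all 8 pairs. It was 0.985 in experiment 7 and 0.95 in experiment 10 for Col4a1 and Col4a2, but 0.839 and 0.397 for Col4a5 and Col4a6. Expression in one specimen shares the tissue cut, the RNA and the array, and among all 351 pairs of tested collagen genes the median r was 0.371, with a range of -0.636 to 0.973 and 253 pairs above 0. Chains of different collagens also reached high values, such as 0.92 for Col1a2 and Col3a1 and 0.911 for Col1a2 and Col5a2. Whether the 8 pairs differ from the rest was not tested.

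**Figure D3:**
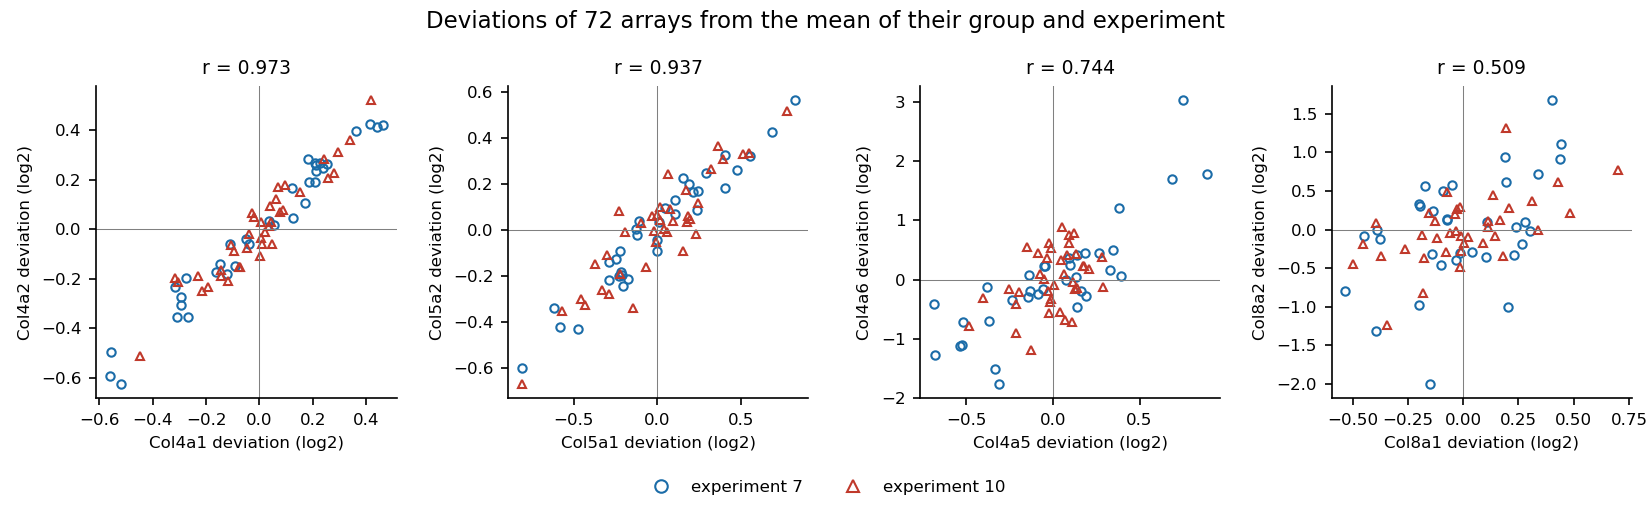
Deviation of each of the 72 arrays from the mean of its group and experiment, in log2 units, for 4 chain pairs, with experiment 7 as circles and experiment 10 as triangles. Points lie close to a line for Col4a1 and Col4a2 (r = 0.973) and for Col5a1 and Col5a2 (0.937), and scatter more widely for Col4a5 and Col4a6 (0.744), where arrays of experiment 7 lie farthest out, and for Col8a1 and Col8a2 (0.509).

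The 2 experiments were compared within 1 group, the control antibody mice. The arrays of that group in experiment 7 and in experiment 10 came from different array runs, so experiment and array run cannot be told apart. In control antibody mice 2 of the 27 were called in either direction, both higher in experiment 10 than in experiment 7, while 4.84% of all genes were called in either direction. Col5a3 had a lowest, median and highest of 6.21, 6.62 and 7.05 in experiment 10 and 4.82, 5.43 and 6.13 in experiment 7, a difference of 1.10 ± 0.27 (adjusted p = 0.0101 in limma). Col15a1 had 8.80, 8.95 and 9.09 in experiment 10 and 7.91, 8.28 and 9.10 in experiment 7, a difference of 0.59 ± 0.18 (adjusted p = 0.0361 in limma). The arrays of Col5a3 did not overlap between the experiments, while 1 array of experiment 7 lay just above the highest of experiment 10 for Col15a1.

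In untreated mice the same genes ran the other way, with Col5a3 medians of 5.94 in experiment 10 and 6.56 in experiment 7 (n = 4 each). The difference between experiments in the control antibody effect was 1.84 ± 0.46 for Col5a3 and 1.06 ± 0.30 for Col15a1 and did not pass (adjusted p = 0.111 and 0.145 in limma). Across the 27 genes limma called 0 differences between experiments in this effect, with 11 at an unadjusted p under 0.05 and 0.0160% of all genes called. It called 0 for the TNFR-Ig effect (2 at an unadjusted p under 0.05, 0% of all genes), 0 for the anti-TWEAK effect (5, with 1.72% of all genes) and 0 for the combination effect (1, with 0.0319% of all genes). With these numbers of mice, differences that miss the threshold are not shown to be absent.

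**Figure D4:**
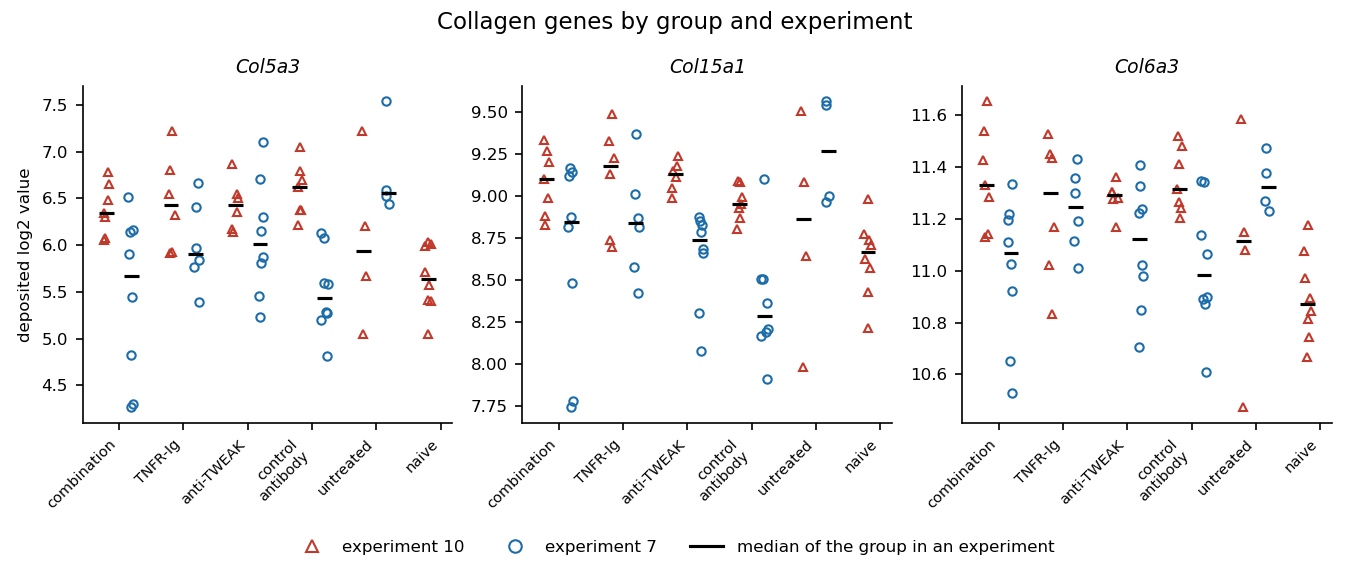
Deposited log2 values of Col5a3, Col15a1 and Col6a3 by group, with experiment 10 (triangles) left of experiment 7 (circles) in each group and the median of each as a line; axes do not start at 0, and naive mice were in experiment 10 alone. In control antibody mice Col5a3 has a median of 6.62 in experiment 10 and 5.43 in experiment 7, and in untreated mice 5.94 and 6.56.

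The 15 genes below the filter were Col2a1, Col4a3, Col4a4, Col6a5, Col7a1, Col9a1, Col9a2, Col9a3, Col10a1, Col11a2, Col17a1, Col19a1, Col20a1, Col22a1 and Col26a1. Cartilage collagens make up much of this set. For 14 of the 15 the value lay within 0.1 of the floor on at least 56 arrays, and for 6 on all 72, so the arrays set only an upper bound for them. Just inside the filter was Col13a1, with a mean of 2.639, and just outside it Col20a1, with 2.362. Col17a1, the hemidesmosome collagen of squamous epithelium, lay within 0.1 of the floor on 56 of the 72 arrays. It reached 5.64 in 1 untreated mouse, 4.87 in a TNFR-Ig mouse and 4.08 in a combination mouse. Col19a1, a fibril-associated collagen, reached 6.11 and 5.82 in 2 untreated mice. Their means over all arrays lay below the filter, and they were not tested.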

How the data were processed

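RNA of 72 colon specimens, 1 per mouse, was hybridised to Affymetrix mouse arrays. The authors deposited log2 expression values per probe set; RMA, GCRMA, R 2.11.1 and limma 3.4.5 are named per the submitters' processing notes, with their roles not given in the sources used here. The values have a floor at 2.077, so changes of dim genes are understated.

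Of 45101 probe sets 34958 had 1 gene symbol in the platform annotation, updated through Entrez ID where the mouse RefSeq table held it (99.42%). They gave 18194 genes, each by its probe set of highest mean. Only genes with a mean of at least 2.42 were tested (12535); this level is the 40th percentile over the means of every probe set. A limma 3.58.1 model (lmFit and eBayes, R 4.3.3) with group and experiment was fitted to all 72 arrays, with Benjamini-Hochberg adjustment over all tested genes and a threshold of 0.05; separate models held the group by experiment terms. The steps were tested on simulated data. Python 3.11.15, pandas 2.3.3, numpy 2.4.6 and matplotlib 3.10.9 did the rest. Pair correlations used 100000 permutations. The number of arrays limits the precision.

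Naive mice were in experiment 10 alone, so their comparisons use an experiment term estimated from colitic mice, and values from experiment 10 alone are given beside them. The first naive array carries a label that also speaks of a treatment; it was kept as naive and left out in 1 alternative. Alternatives were no experiment term, no filter, the mean over probe sets, quantile normalization, a replicate block, each experiment alone, the compared groups alone, and arrays left out. The last 2 of these, for the array with the highest Col4a6 and that with the lowest Col12a1, were chosen after seeing the data.

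The members and gene lists were chosen with earlier results of these data known. Every collagen gene could be named; values by group were given for those that passed in colitis with a log2 change of at least 1 or were among the 5 smallest p-values of a comparison, and of other lists up to 4 called genes by size. Other values, such as those of Col8a1, Col1a2, Col17a1 and Col19a1, were chosen after they were seen. Promoter windows are from RefSeq, GRCm38.p6.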

Additional observations from a re-analysis of the deposited data

Results flagged for a closer look

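Of 54 sets of 8 arrays (27 genes in untreated and in naive mice), 7 had 1 array whose gap to the nearest other array exceeded 0.526 of the group's range. Chance alone flags about 1 in 20 such sets when values are normally distributed without ties. That rate does not hold for genes with repeated values, such as Col13a1 (2.637 on 60 of the 72 arrays) and Col11a1 (2.249 on 16). Among untreated mice, 1 array (experiment 10, replicate 3) was lowest for Col6a3, at 10.473 with the next at 11.081, and for Col12a1, at 9.747 with the next at 10.852. Another untreated array (experiment 10, replicate 5) was highest for Col13a1, at 2.854, while the others were at 2.637. Among naive mice, replicate 5 was lowest for Col11a1, at 2.093 with the next at 2.213. Replicate 7 was lowest for Col13a1, at 2.577 with the next at 2.637, and highest for Col14a1, at 8.917 with the next at 8.475. Replicate 3 was lowest for Col24a1, at 3.02 with the next at 3.541. Without the untreated array that was lowest for Col12a1, Col6a4 was no longer called in colitis (-0.67).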

How the results depend on the processing

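No called collagen change reversed its sign under any alternative, and the count of collagen genes called in colitis lay between 17 and 22 (21 as reported). The count for control antibody against untreated mice was the least stable: 4 as reported, 2 with no experiment term, 0 with the replicate block, 1 in experiment 10 alone (Col27a1, higher), 0 in experiment 7 alone, 0 with the compared groups alone, 2 without the naive array of contradictory labels, 2 without the array highest for Col4a6 and 10 without that lowest for Col12a1. For TNFR-Ig against control antibody the reported 1 became 0 in experiment 7 alone, 2 with the compared groups alone and 2 without the later-run arrays of experiment 7; against untreated mice the reported 0 became 1 with no filter and 1 in experiment 10 alone. For anti-TWEAK against control antibody it was 3 in experiment 10 alone, against 0. For combination against control antibody the reported 3 became 0 in experiment 7 alone and 5 without the later-run arrays. For combination against untreated the reported 11 became 6 with the replicate block, 4 in experiment 10 alone, 4 in experiment 7 alone, 5 with the compared groups alone and 7 without the later-run arrays. For combination against TNFR-Ig the reported 3 became 1 with no filter, 1 in experiment 10 alone, 0 in experiment 7 alone and 1 without the array highest for Col4a6. For combination against naive the reported 11 became 17 in experiment 10 alone. For experiment 10 against 7 the reported 2 became 1 with no filter, and for the experiment difference of the control antibody effect the reported 0 became 2 with no filter and 1 without the later-run arrays. Experiments taken alone and compared groups alone use fewer arrays; for the other settings the cause was not tested.

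No pairing by replicate number was used in the main model. Arrays of 1 number in different groups of an experiment had a mean correlation of -0.006 in their deviations (132 pairs, -0.54 to 0.55), against 0.001 for other pairs (921 pairs). Such a mean cannot exclude a block shared by some of the arrays. With the replicate block 43 of 54 called collagen changes remained called. Over all genes, counts also moved: for control antibody against untreated 1296 became 2237 in experiment 10 alone, 6 in experiment 7 alone and 711 with the compared groups alone; for combination against control antibody 3909 became 2200 and 1059 in experiments 10 and 7 alone; for combination against TNFR-Ig 841 became 503 without the array highest for Col4a6; for TNFR-Ig against control antibody 512 became 1950 and 0 in experiments 10 and 7 alone, and for anti-TWEAK 351 became 1873 and 0. Arrays at the floor, as for 14 collagen genes on at least 56 arrays, cannot show a fall.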
